A study of Ovis aries with 36 samples.

Results

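HOX genes encode homeodomain transcription factors that give cells of the embryo their position along the head to tail axis. In mammals they lie in 4 clusters, A to D, and genes of the same number in different clusters form a paralog group. Low-numbered genes are switched on first and reach furthest forward in the embryo, whereas high-numbered genes are restricted to its hind parts, and connective tissue and adipocyte precursors of the adult body are known to retain part of this code. The HOX loci of fetal sheep were described here in back muscle and in 2 fat depots. They were all loci that carried a name made of HOX, a cluster letter and a number, and no measured value is part of that rule.

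The rule found 34 loci of 34958 in muscle, 40 of 34246 in subcutaneous adipose tissue and 37 of 35060 in perirenal adipose tissue, because loci had been assembled separately in each tissue. They carried 34 different names. To compare tissues, loci that shared a name on a chromosome were summed, which left 31 HOX units among 22374 genes. HOXA4, HOXA5 and HOXA6 were a single locus in muscle and had to be treated as 1 unit, as had HOXB3 with HOXB4 and HOXD3 with HOXD4. A separate locus on chromosome 11 also carried the name HOXA5, between HOXB6 and HOXB4, where the gene order of the RefSeq sheep annotation (ARS-UI_Ramb_v3.0) places HOXB5. It was kept apart as the chromosome 11 locus, and the names HOXA7, HOXA11, HOXB5 and HOXD11 were not analysed here.

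In Oar_v3.1 coordinates, the HOXA units spanned positions 68826735 to 68939287 of chromosome 4, and the HOXB units positions 37337230 to 37509285 of chromosome 11. The HOXC units spanned positions 132334177 to 132429375 of chromosome 3, and the HOXD units positions 132819254 to 132915560 of chromosome 2. These spans cover the loci of all 3 tissues, and the extent of a unit could differ between tissues. Several units shared a listed span. HOXB2 lay in the span listed for HOXB3 and HOXB4 in muscle, and HOXC9 had 2 loci over the same span in muscle and perirenal fat but 1 in subcutaneous fat. Reads of such overlapping loci may be split between them.

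The 36 libraries were RNA pools from 26 fetuses of 15 Polypay dams bred to a single sire, collected in late gestation. Dams had been fed from mid-gestation a diet based on corn (CN), on dried corn distillers grains (DG) or on alfalfa haylage (HY). HY was fed without restriction, and CN and DG in amounts limited to match the energy intake of HY. No group served as an untreated control. For each diet and tissue there were 2 pools of female fetuses (F1 and F2) and 2 of male fetuses (M1 and M2). Tissues were longissimus dorsi muscle from the left side, the subcutaneous depot near the shoulder blade and the perirenal depot, and the level of the back at which muscle was taken is not given in the sources used here. 1 pool of CN females held RNA of a single fetus and the other pools of 2 or 3, and some pools of the same diet shared a dam, so p-values measure the spread between pools and not between unrelated animals.

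Libraries held 6705766 to 29625146 counted reads. The 12 listed skeletal muscle markers gave 10 units, none of which was at 0. These summed to 126218 to 178294 CPM (read counts scaled to library size) in muscle and 25.4 to 623 CPM in perirenal fat. MYH3 and MYH8 shared 1 unit with MYH1 and other myosin names, at a median of 48656 CPM in muscle. In the subcutaneous pools the muscle marker sum ranged from 887 to 135449 CPM, so that some of these pools held nearly as much muscle RNA as muscle itself. The sum was above 10% of the muscle median in 7 subcutaneous pools, called rich in muscle RNA here, and below it in 5. Adipocyte markers (6 of 7 found) summed to 87.0 to 189 CPM in muscle, with LEP at 0, to 2058 to 11404 CPM in subcutaneous fat and to 5620 to 14821 CPM in perirenal fat. Brown adipocyte markers (4 of 4) reached 32.4 to 229 CPM in subcutaneous and 587 to 1353 CPM in perirenal fat. Kidney markers (9 of 9) summed to at most 7.17 CPM in perirenal fat, with UMOD and AQP2 at 0, and adrenal markers (4 of 5) to at most 40.6 CPM with NR5A1 at 0. Schwann cell markers (3 of 3) ranged from 46.8 to 5786 CPM in subcutaneous fat. Epidermis markers (4 of 4) ranged from 23.7 to 153 CPM in subcutaneous and from 28.1 to 511 CPM in perirenal fat. KRT14 was counted together with KRT16 and KRT15 together with KRT13, at up to 326 and 160 CPM in perirenal fat. KRT5 had at most 0.688 CPM in subcutaneous and 0.0689 CPM in perirenal fat. KRT10 had medians of 25.9, 21.9 and 25.3 CPM in muscle, subcutaneous and perirenal fat. Mesothelium markers (2 of 3) did not pass 0.515 CPM in any tissue. Endothelium markers (2 of 3) ranged from 224 to 629 CPM and leukocyte markers (3 of 3) from 38.6 to 335 CPM over all pools. Most of the leukocyte sum came from a locus that CD68 shares with the translation factor EIF4A1, while PTPRC had at most 31.7 CPM and CD79B at most 3.21 CPM.

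HOX genes up to paralog group 11 were detected in muscle and perirenal fat, whereas in subcutaneous fat HOXA9, HOXA10, HOXC10 and HOXC11 were at or near 0. With detection set at 1 CPM or more in at least 6 of 12 pools, 20 units were detected in muscle, 18 in perirenal fat and 15 in subcutaneous fat. Of the 31 units, 13 were detected in all 3 tissues, 6 in 2 tissues, 2 in 1 tissue and 10 in none. Levels are given as CPM scaled by the trimmed mean of M-values (TMM) and are not corrected for gene length, so they are compared between tissues and not between genes. In pooled tissue, a lower level in each cell and fewer cells of a type cannot be told apart.

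**Figure D1:**
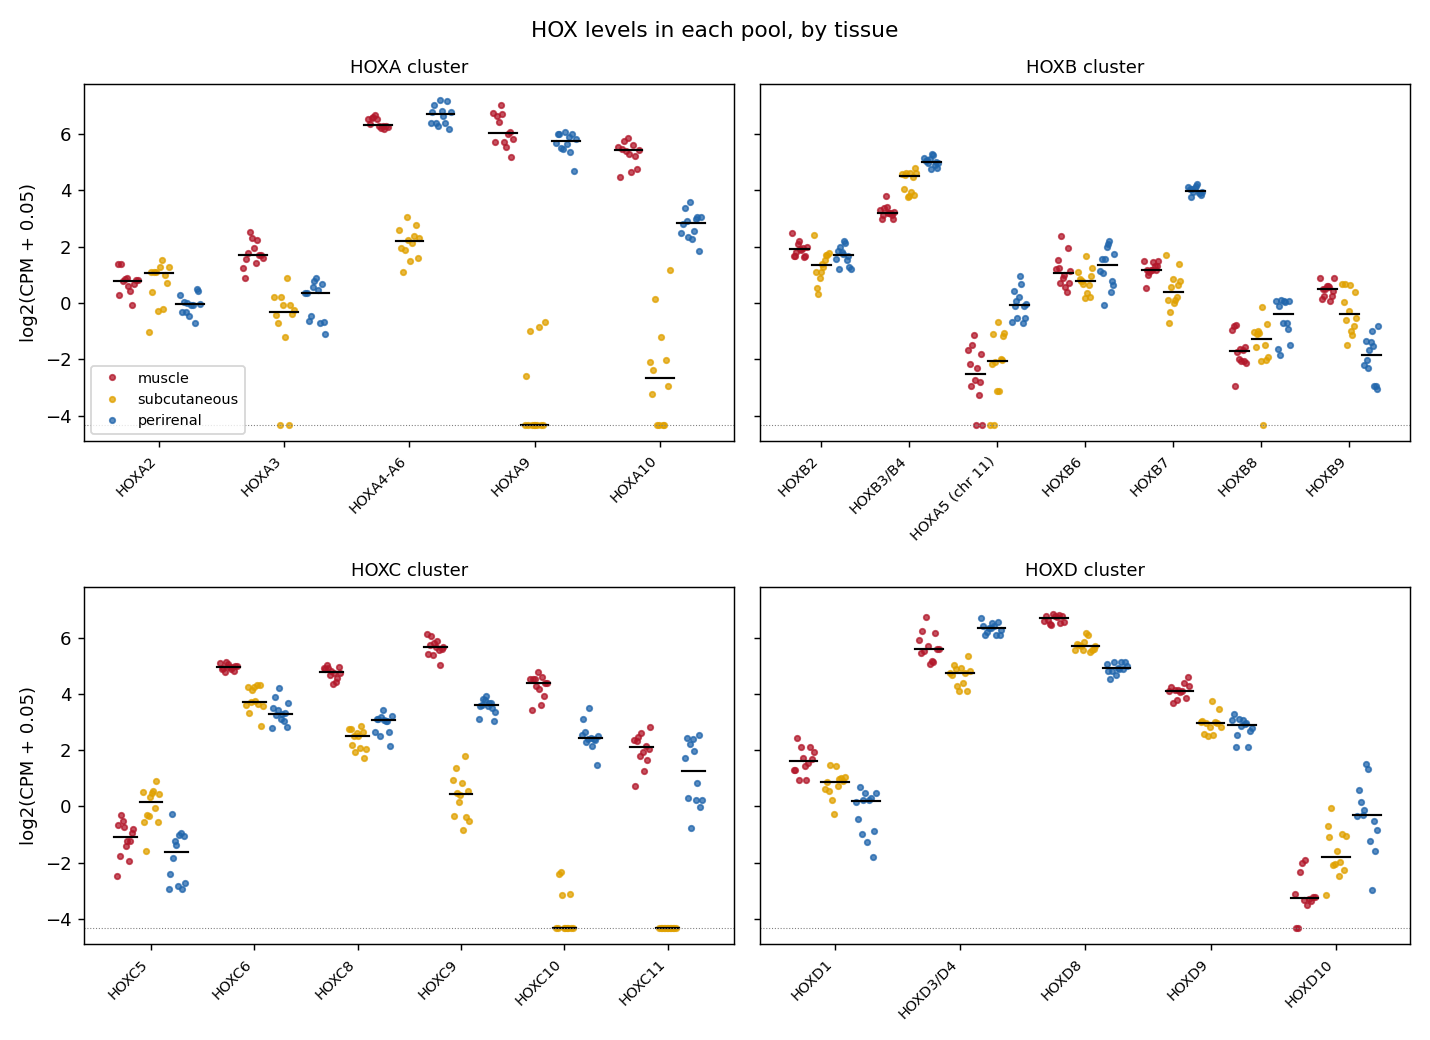
TMM-scaled level of 23 HOX units that passed the count filter, as log2(CPM + 0.05), in the 12 pools of muscle, subcutaneous and perirenal fat, with 1 panel for each cluster. Points are pools, black bars are medians and the dotted line marks 0 CPM. HOXA9, HOXC10 and HOXC11 had medians of 0 in subcutaneous fat.

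The filter on low counts left 24 of the 31 HOX units among 13636 genes tested. Against muscle, subcutaneous fat had 4 HOX units higher and 16 lower at an adjusted p of at most 0.05 (edgeR quasi-likelihood test, Benjamini-Hochberg adjustment over all genes), where 35.7% of all genes tested were higher and 36.3% lower. The median log2 fold change was -0.89 over the HOX units and -0.01 over all genes. Perirenal fat had 7 HOX units higher and 12 lower than muscle, against 38.7% and 41.1% of all genes, with a median of -0.56 over the units and -0.03 over all genes. Against subcutaneous fat, perirenal fat had 14 units higher and 6 lower, against 31.7% and 35.2% of all genes, with medians of 0.68 and -0.02. Tissues differed widely at all genes, and the counts of HOX units are to be read against these shares. The 3 comparisons share their libraries.

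**Figure D2:**
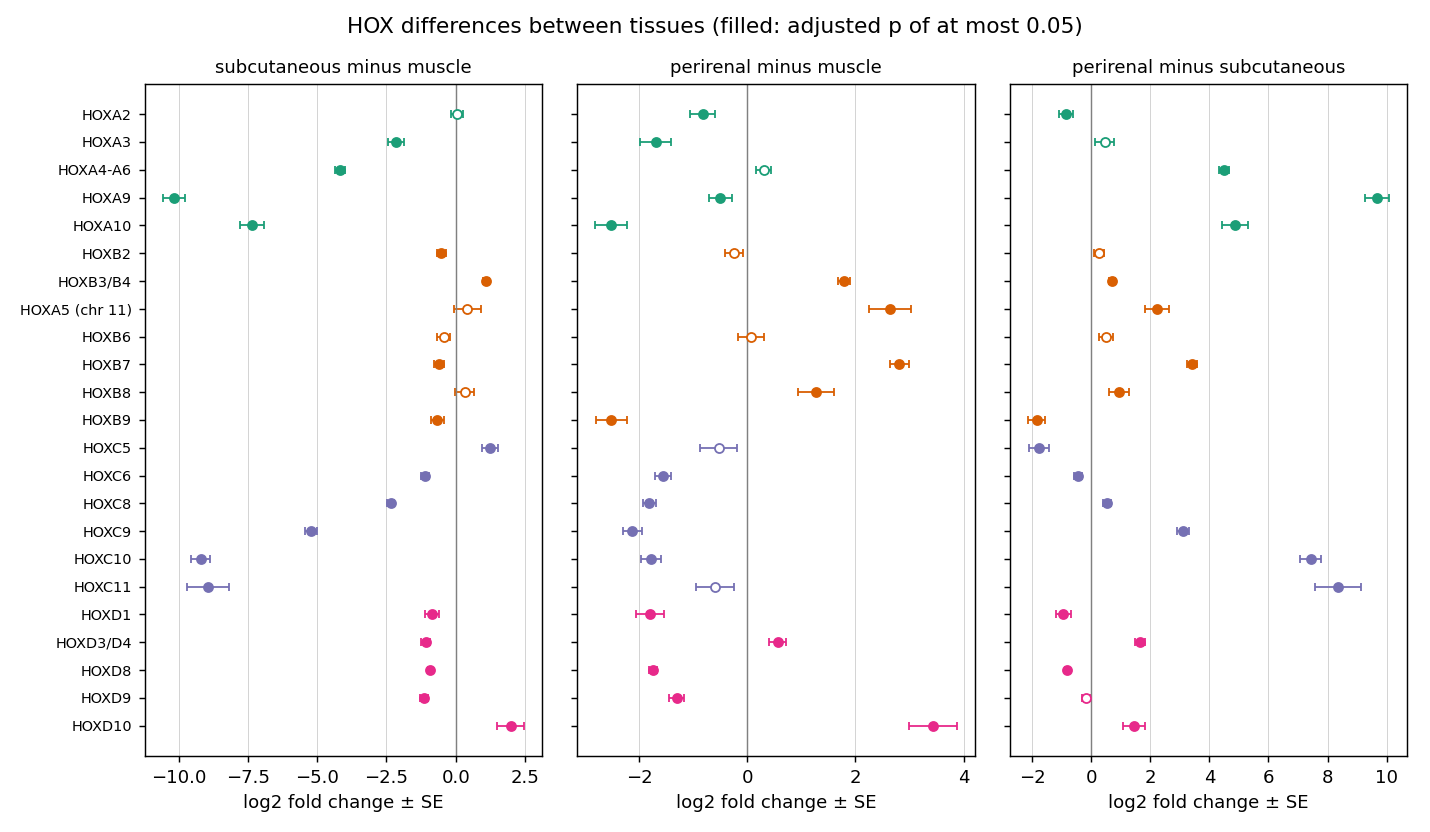
Log2 fold change (horizontal axis, with 1 SE) of 23 HOX units tested in the 3 tissue comparisons, ordered by cluster (colours) and paralog number. Filled points had an adjusted p of at most 0.05; in the left panel 16 filled points lie below 0 and 3 above it. The points of HOXC11 against subcutaneous fat, where it had no read, depend on the fit and are not estimates of its fold.

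Of the 8 units of groups 9 to 11 tested, HOXA9, HOXA10, HOXC9, HOXC10 and HOXC11 were lower in subcutaneous fat than in both other tissues, and HOXB9, HOXD9 and HOXD10 were not. HOXA9 (chromosome 4, 68863806 to 68870910), a posterior HOX factor of trunk and limb, had 36.5 CPM in the lowest muscle pool, a median of 65.9 and 131 in the highest. In perirenal fat it had 25.5, 53.5 and 67.2 CPM. In subcutaneous fat its lowest and median pools were at 0 and its highest at 0.576 CPM, with 18 reads in all. These came from HY M2 (8 reads), HY F1 (5), CN M2 (3) and CN F2 (2), and every subcutaneous pool lay far below every pool of the other tissues. Its log2 fold change was -10.18 (SE 0.40, adjusted p = 6.2e-19, edgeR) in subcutaneous fat against muscle and 9.68 (SE 0.40, adjusted p = 2.2e-18, edgeR) in perirenal against subcutaneous fat. The counted locus ran from 68863806 to 68870807 in muscle, from 68867786 to 68870910 in perirenal fat and from 68867786 to 68869662 in subcutaneous fat. Folds of HOXA9 thus compare unlike extents. Perirenal fat and muscle overlapped, and their difference of -0.50 (SE 0.21, adjusted p = 0.032, edgeR) was not past the threshold with library totals in place of TMM factors (-0.14, adjusted p = 0.57, edgeR), nor in 14 of 36 fits without 1 library (adjusted p = 0.051 to 0.089, edgeR). These left out muscle CN F1, CN M1, DG F1, DG F2, HY F1 or HY F2, perirenal CN F1, CN M2, DG F1, DG M1, DG M2, HY F1 or HY M1, or subcutaneous CN F2.

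HOXC10 (chromosome 3, 132378136 to 132383233), known for its expression in lumbar trunk, hindlimb and lower-body fat, had 10.8, 20.9 and 27.4 CPM in the lowest, median and highest muscle pools. In perirenal fat it had 2.71, 5.30 and 11.1 CPM. In subcutaneous fat 8 of 12 pools had no read and 4 pools had 1 read each. It was lower in subcutaneous fat than in muscle by a log2 fold change of -9.21 (SE 0.34, adjusted p = 4.2e-21, edgeR) and higher in perirenal than in subcutaneous fat by 7.43 (SE 0.36, adjusted p = 4.0e-18, edgeR). With so few reads in subcutaneous fat the size of these changes is imprecise, although no pools overlapped. Perirenal fat lay below muscle, by -1.78 (SE 0.19), with pools that overlapped.

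HOXC11 (chromosome 3, 132391846 to 132395153), the most posterior HOX gene detected, had 1.62, 4.24 and 7.06 CPM in muscle. In perirenal fat it had 0.535, 2.48 and 5.72 CPM. No read of it was counted in any of the 12 subcutaneous pools. With a limit of 3 reads over the 12 pools, or 0.0191 CPM, it was at least 215-fold higher in muscle (adjusted p = 3.0e-10, edgeR) and at least 146-fold higher in perirenal fat (adjusted p = 2.5e-09, edgeR). At these limits HOXC11 stayed on the same side of the medians over the HOX units given above for subcutaneous fat. Those medians therefore could not change. Perirenal fat and muscle overlapped, with a difference of -0.59 (SE 0.35, adjusted p = 0.13, edgeR) that passed the threshold without the perirenal HY F2 pool (adjusted p = 0.024, edgeR). Perirenal pools were widely spread, and each diet held both high and low pools: 3.22, 5.38, 1.18 and 4.57 CPM in CN (F1, F2, M1 and M2), 0.535, 5.17, 3.91 and 1.12 in DG, and 1.75, 5.72, 0.929 and 1.13 in HY.

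HOXA10 (chromosome 4, 68853547 to 68863494), a posterior gene known from the uterus and limb, had 22.3, 42.8 and 57.7 CPM in muscle and 3.57, 7.22 and 12.0 CPM in perirenal fat. Subcutaneous pools held 51 reads in all, of which 31 came from HY M2 (2.23 CPM) and 7 from CN M2 (1.05 CPM), and 4 pools had none. No 2 tissues overlapped. The log2 fold change was -7.37 (SE 0.43) in subcutaneous fat against muscle, -2.51 (SE 0.30, adjusted p = 5.3e-09, edgeR) in perirenal fat against muscle and 4.86 (SE 0.44) in perirenal against subcutaneous fat. The counted HOXA10 locus began at 68853547 in muscle and at 68858041 in both fats, so its extent was longer in muscle.

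Of the other group 9 genes, HOXC9 had 32.9, 50.6 and 70.6 CPM in muscle. It had 8.14, 12.1 and 14.9 CPM in perirenal fat and 0.516, 1.32 and 3.46 CPM in subcutaneous fat. No pools of 2 tissues overlapped. Log2 fold changes were -5.22 (SE 0.21) for subcutaneous fat against muscle and -2.12 (SE 0.17) for perirenal fat against muscle. For perirenal against subcutaneous fat the change was 3.1 (SE 0.20). Over the alternatives tried, these changes spanned -5.45 to -4.53, -2.45 to -1.76 and 2.28 to 3.33, in this order. Beside the subcutaneous HOXC9 locus (205 reads) lay an unnamed locus with 130 reads, which was not counted to HOXC9. Its span falls within that of the HOXC9 loci in muscle and perirenal fat, so folds against subcutaneous fat compare unlike extents. HOXD9 was expressed in every tissue, at 12.9, 17.3 and 24.1 CPM in muscle, 5.64, 7.69 and 13.5 CPM in subcutaneous fat and 4.27, 7.36 and 9.58 CPM in perirenal fat. It was lower in both fats than in muscle (-1.13, SE 0.14, and -1.30, SE 0.14), and the depots did not differ past the threshold (-0.17, SE 0.14, adjusted p = 0.29, edgeR). HOXD9 was thus read in every subcutaneous pool, unlike HOXA9.

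HOXB9 was detected in muscle alone, at 1.004, 1.36 and 1.82 CPM. In subcutaneous fat it had 0.310, 0.710 and 1.56 CPM and in perirenal fat 0.0714, 0.232 and 0.515 CPM, so that perirenal fat lay below every muscle pool (-2.51, SE 0.28, adjusted p = 1.5e-09, edgeR). This was the reverse of HOXA9 and HOXC9, which were higher in perirenal than in subcutaneous fat, whereas HOXB9 was lower there (-1.84, SE 0.30). Its difference between subcutaneous fat and muscle (-0.66, SE 0.24) was lost without the pools rich in muscle RNA (-0.26, adjusted p = 0.45, edgeR) and with library totals in place of TMM factors (-0.47, adjusted p = 0.10, edgeR). HOXD10 was nearly absent from muscle, with 0, 0.0556 and 0.216 CPM and 17 reads in all. It had 0.0624, 0.244 and 0.903 CPM in subcutaneous fat and 0.0794, 0.753 and 2.81 CPM in perirenal fat, where it was higher than in muscle (3.43, SE 0.44, adjusted p = 2.0e-08, edgeR) and did not reach detection. HOXD10 was thus the only group 10 unit higher in both fats than in muscle.

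Subcutaneous pools rich in muscle RNA stayed below every muscle pool at HOXA9, HOXA10, HOXC9, HOXC10 and HOXC11, but not at HOXB9 (up to 1.56 CPM) or HOXD10 (up to 0.573 CPM). The subcutaneous DG F1 pool had a muscle marker sum of 135449 CPM, 93.0% of the muscle median, and it had no read of HOXA9, HOXA10 or HOXC11, 1 read of HOXC10 and 17 reads of HOXC9 among 20272024 counted reads. HY F2, at 79.6% of the muscle median, had no read of HOXA9 or HOXC11, 3 of HOXA10 and 1 of HOXC10. The subcutaneous pools with the least muscle RNA, HY F1 and DG M1, also had no read of HOXC10 or HOXC11, although HY F1 had 5 reads of HOXA9 and DG M1 4 of HOXA10. The satellite cell gene PAX7 was low in them too, with 31.8 to 43.8 CPM in muscle and 0 to 0.257 CPM in subcutaneous fat. PAX3, its paralog, had at most 0.100 CPM in muscle, 14.0 CPM in subcutaneous DG F1 and 0.0952 CPM in DG M1.

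**Figure D3:**
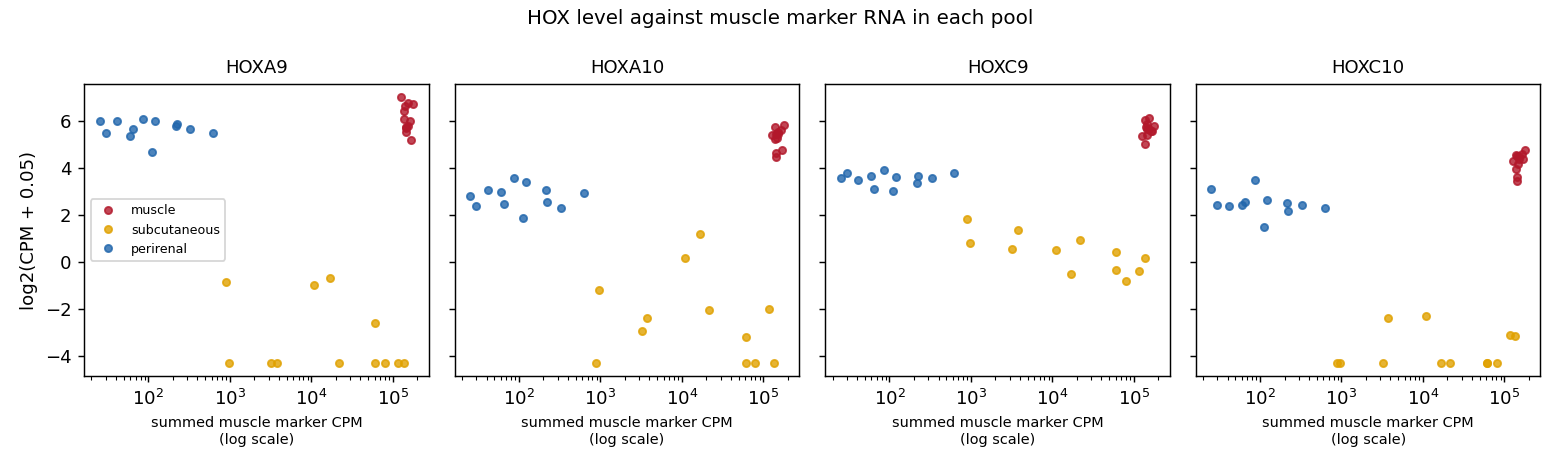
Level of HOXA9, HOXA10, HOXC9 and HOXC10, as log2(CPM + 0.05), against the summed CPM of skeletal muscle markers (logarithmic axis) in each of the 36 pools, coloured by tissue. Subcutaneous pools spread from 887 to 135449 CPM of muscle markers and stay below the muscle pools in all 4 panels.

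Middle genes differed in which tissue was highest or lowest. The HOXA4 to HOXA6 unit, around HOXA5, a factor of thoracic patterning and of adipocyte differentiation, had 71.8, 80.4 and 103 CPM in muscle. It had 72.9, 105 and 149 CPM in perirenal fat but 2.11, 4.54 and 8.31 CPM in subcutaneous fat. It was lower in subcutaneous fat than in muscle (-4.18, SE 0.17) and higher in perirenal than in subcutaneous fat (4.49, SE 0.17), with no overlap of pools. Perirenal fat and muscle overlapped, with a difference of 0.30 (SE 0.14, adjusted p = 0.054, edgeR). This difference passed the threshold in 16 of 36 fits without 1 library (adjusted p = 0.016 to 0.047, edgeR) and with library totals (0.67, adjusted p = 4.0e-05, edgeR). It also passed with DESeq2 (0.31, adjusted p = 0.046, DESeq2) and without the subcutaneous pools rich in muscle RNA (0.36, adjusted p = 0.0049, edgeR). In 25 alternatives it did not pass.

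In the fat depots the 3 genes were separate loci, and their balance differed. In perirenal fat 91.6% of the unit's 15308 reads were counted to HOXA5, 7.48% to HOXA4 and 0.875% to HOXA6. In subcutaneous fat 25.6% of 765 reads were counted to HOXA5, 72.7% to HOXA4 and 1.70% to HOXA6. The HOXA5 locus on chromosome 4 had 66.4, 93.9 and 138 CPM in perirenal pools and 0.806, 1.22 and 1.63 CPM in subcutaneous pools. HOXA4 was closer between depots, with 3.06, 4.97 and 8.88 CPM at its main locus in perirenal fat and 0.562, 2.21 and 6.63 CPM in subcutaneous fat. Locus boundaries differed between depots, so these values are a description and were not tested.

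HOXB7, a middle gene of cluster B, was highest in perirenal fat. It had 13.6, 15.9 and 18.8 CPM in perirenal fat, against 1.39, 2.22 and 2.78 CPM in muscle and 0.562, 1.27 and 3.24 CPM in subcutaneous fat. Every perirenal pool lay above every other pool, with a log2 fold change of 2.81 (SE 0.17, adjusted p = 7.9e-16, edgeR) against muscle and 3.41 (SE 0.18) against subcutaneous fat. The HOXA5 locus of chromosome 11 was also higher in perirenal fat than in muscle (2.64, SE 0.39, adjusted p = 3.1e-07, edgeR) and subcutaneous fat (2.22, SE 0.40), at 0.556, 0.906 and 1.91 CPM in perirenal pools. Its highest pool reached 0.401 CPM in muscle and 0.571 CPM in subcutaneous fat. HOXB8 was higher in perirenal fat than in muscle (1.27, SE 0.33) and subcutaneous fat (0.95, SE 0.34), at mean levels of 0.286, 0.362 and 0.690 CPM in muscle, subcutaneous and perirenal fat. HOXB6, with means of 2.35, 1.76 and 2.62 CPM, did not pass the test in any comparison. A locus without a HOX name shared its span. That locus held 0 reads in muscle, 482 in subcutaneous and 741 in perirenal fat, where HOXB6 held 514, 270 and 388. How reads were divided between these loci was not tested.

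In cluster C the middle genes HOXC6 and HOXC8 were highest in muscle. HOXC8, a marker of thoracic position, had 20.2, 27.4 and 32.6 CPM in muscle. It had 3.22, 5.59 and 7.22 CPM in subcutaneous fat and 4.43, 8.29 and 10.7 CPM in perirenal fat. HOXC6 had 27.2, 30.9 and 34.8 CPM in muscle, 7.22, 13.1 and 19.9 CPM in subcutaneous fat and 6.86, 9.80 and 18.5 CPM in perirenal fat. For both genes every muscle pool was above every fat pool, with log2 fold changes against muscle of -2.34 (SE 0.13) and -1.10 (SE 0.14) in subcutaneous fat and of -1.80 (SE 0.13) and -1.56 (SE 0.15) in perirenal fat. HOXC6 was lower in perirenal than in subcutaneous fat (-0.45, SE 0.14, adjusted p = 0.0066, edgeR), and this was lost without the subcutaneous pools rich in muscle RNA (-0.07, adjusted p = 0.78, edgeR) and with library totals (-0.24, adjusted p = 0.12, edgeR). In those 7 pools HOXC6 ranged from 12.0 to 19.9 CPM and in the other 5 from 7.22 to 13.3 CPM. HOXC5 was detected in subcutaneous fat alone, at 0.281, 1.07 and 1.83 CPM, with means of 0.434 CPM in muscle and 0.298 CPM in perirenal fat. It was higher than in muscle (1.24, SE 0.31), which was lost without the pools rich in muscle RNA (0.89, adjusted p = 0.070, edgeR). Perirenal fat was lower than subcutaneous fat (-1.77, SE 0.33).

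HOXD8 was highest in muscle, lower in subcutaneous fat and lowest in perirenal fat, with no overlap between any 2 tissues. It had 87.3, 103 and 115 CPM in muscle. It had 45.1, 51.7 and 72.4 CPM in subcutaneous fat and 22.8, 29.8 and 34.9 CPM in perirenal fat, with log2 fold changes of -0.93 (SE 0.07) and -1.75 (SE 0.07) against muscle and -0.82 (SE 0.07) between the depots. This order is not that of HOXA9 and HOXC9, for which subcutaneous fat was lowest.

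Among the anterior genes, the HOXB3 and HOXB4 unit was higher in both fats than in muscle. It had 7.87, 9.14 and 14.0 CPM in muscle. It had 13.6, 22.7 and 27.9 CPM in subcutaneous fat and 27.1, 32.5 and 39.3 CPM in perirenal fat. It was higher than in muscle by 1.08 (SE 0.11) in subcutaneous and by 1.79 (SE 0.11) in perirenal fat, and higher in perirenal than in subcutaneous fat by 0.70 (SE 0.11). The separate HOXB3 locus took 9.43% of the unit's reads in muscle, 25.6% in subcutaneous fat and 35.5% in perirenal fat. The HOXD3 and HOXD4 unit, whose locus also carries the microRNA gene mir-10b, had 33.7, 48.6 and 106 CPM in muscle. It had 17.0, 26.5 and 40.1 CPM in subcutaneous fat and 68.0, 80.7 and 104 CPM in perirenal fat. Here subcutaneous fat was lowest, at -1.09 (SE 0.16) against muscle, and perirenal fat was above muscle by 0.57 (SE 0.16) and above subcutaneous fat by 1.65 (SE 0.16).

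The other anterior units described were low, and none of them was called higher in fat than in muscle. HOXA2 was lower in perirenal fat, at a mean of 0.937 CPM against 1.68 CPM in muscle and 1.73 CPM in subcutaneous fat (-0.82, SE 0.23, and -0.86, SE 0.24, respectively). HOXA3 was highest in muscle, at a mean of 3.47 CPM against 0.749 CPM in subcutaneous and 1.09 CPM in perirenal fat (-2.14, SE 0.29, and -1.69, SE 0.28). HOXD1 had means of 3.18 CPM in muscle, 1.77 CPM in subcutaneous and 0.918 CPM in perirenal fat, past the threshold in the 3 comparisons. Its perirenal locus (135 reads) ended at 132821208, whereas its listed span reached 132833018 in muscle and 132832114 in subcutaneous fat. An unnamed perirenal locus with 142 reads lay within the muscle span and was not counted to HOXD1. Folds of HOXD1 in perirenal fat thus compare unlike extents. HOXB2 had means of 3.79, 2.63 and 3.23 CPM and was lower in subcutaneous fat than in muscle only (-0.52, SE 0.17).

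Genes of groups 12 and 13 and HOXB1 were not detectable at this depth. HOXB13, HOXC12, HOXC13 and HOXD12 had no read in any library, which allows at most 0.0139 CPM over the muscle pools, 0.0191 CPM over the subcutaneous pools and 0.0199 CPM over the perirenal pools, for counting error only. HOXA13 had 2 reads and HOXB1 1 read, all in muscle. HOXD13 had 2 reads in muscle and 4 in a single perirenal pool.

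Summed by paralog group, subcutaneous fat lay far below the other tissues in groups 9 to 11 and in the sum around HOXA4 to HOXA6. In groups 2 to 4 its pools overlapped with those of muscle. Group 2 had medians of 5.16 CPM in muscle, 4.51 CPM in subcutaneous fat and 4.196 CPM in perirenal fat. Groups 3 and 4 had 60.4, 50.1 and 113 CPM, and the sum of the HOXA4 to HOXA6 unit with the other loci of groups 5 and 6 had 114, 21.3 and 121 CPM. Group 8, in which HOXD8 took most reads, had 131, 56.9 and 39.1 CPM. Group 9 had 131, 10.03 and 72.4 CPM, group 10 had 63.2, 0.440 and 13.1 CPM and group 11, here HOXC11 alone, had 4.24, 0 and 2.48 CPM. Groups 9 to 13 made up 31.7% to 43.8% of all HOX CPM in muscle pools, 14.8% to 24.1% in perirenal pools and 4.09% to 8.66% in subcutaneous pools, ranges that did not overlap. These sums give long and strongly covered genes more weight and were not tested.

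**Figure D4:**
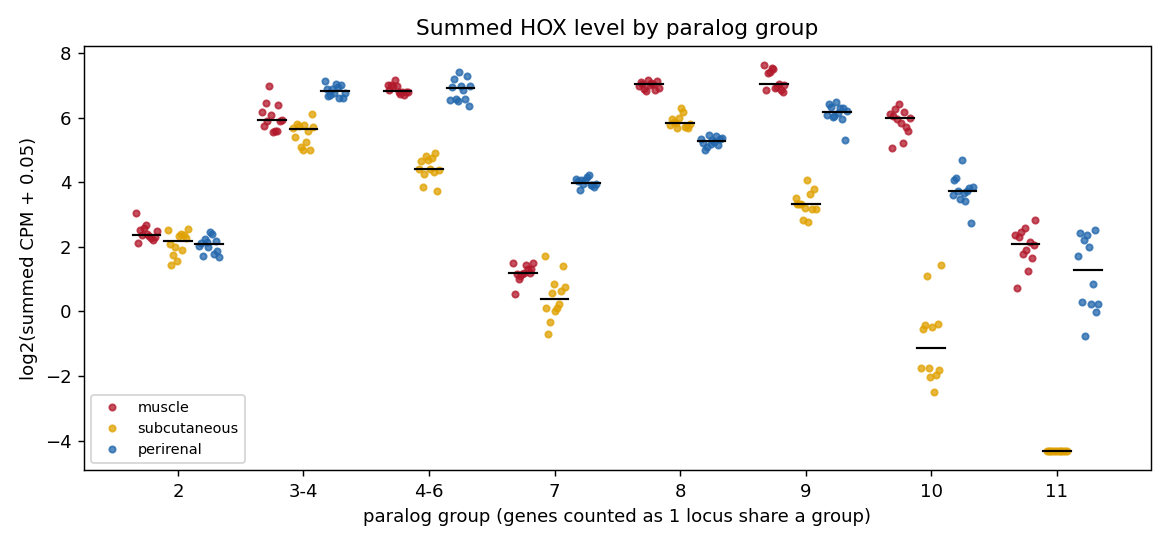
Summed level of the HOX units of paralog groups 2 to 11, as log2(CPM + 0.05), in the 12 pools of each tissue (points) with the median (bars). Genes counted as a single locus share a group. Medians of subcutaneous fat fall from 10.03 CPM in group 9 to 0.440 CPM in group 10 and 0 in group 11.

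By cluster, HOXA was low in subcutaneous fat, with a median sum of 28.9 CPM against 196 CPM in muscle and 208 CPM in perirenal fat. HOXC was high in muscle, at 133 CPM against 22.6 CPM in subcutaneous and 38.5 CPM in perirenal fat. HOXB was high in perirenal fat, at 54.2 CPM against 19.0 CPM in muscle and 28.9 CPM in subcutaneous fat. HOXD had 175, 89.8 and 120 CPM in muscle, subcutaneous and perirenal fat. In cluster C, 5 of 6 units tested had their highest mean in muscle, and in cluster B 5 of 7 had it in perirenal fat.

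The read-weighted mean paralog number describes where along a cluster the reads lay. It gives long and strongly covered genes more weight and was not tested. In cluster C its median was 8.32 in muscle, 8.27 in perirenal fat and 6.62 in subcutaneous fat. In cluster D it was 6.71 in muscle, 6.63 in subcutaneous fat and 4.99 in perirenal fat, and in cluster B 4.35, 3.91 and 4.51 in muscle, subcutaneous and perirenal fat. The lowest median was that of subcutaneous fat in clusters B and C and that of perirenal fat in cluster D. HOXD10, the most posterior HOXD unit tested, still had its highest mean in perirenal fat.

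Loci of the clusters without a HOX gene name did not change the order of tissues in the cluster sums, although some held many reads. An unnamed HOXD locus held 1518 reads in subcutaneous fat, where HOXD9 had 1230. With every locus of the interval summed, HOXA had 215, 32.1 and 216 CPM in muscle, subcutaneous and perirenal fat, and HOXC had 140, 26.2 and 43.7 CPM. HOXB had 19.2, 32.8 and 60.9 CPM and HOXD 185, 101 and 139.6 CPM. With these loci included, the HOXA and HOXC sums stayed lowest in subcutaneous fat.

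HOX proteins bind DNA together with PBX, MEIS and PKNOX cofactors. Of 9 listed cofactors 8 were tested, and 3 were higher and 4 lower in subcutaneous fat than in muscle, 2 higher and 5 lower in perirenal fat than in muscle and 3 higher and 4 lower in perirenal than in subcutaneous fat. Of all genes tested, 35.7% and 36.3%, 38.7% and 41.1%, and 31.7% and 35.2% passed in the same directions, and nothing particular to the cofactors is read from their counts. The largest changes against muscle were those of PKNOX2, which had 44.8, 49.8 and 57.7 CPM in muscle, 2.34, 5.31 and 14.4 CPM in subcutaneous fat and 6.75, 9.65 and 13.9 CPM in perirenal fat (-2.94, SE 0.21, and -2.30, SE 0.20). PBX3 was higher in subcutaneous (1.26, SE 0.12) and perirenal fat (1.33, SE 0.12) than in muscle. MEIS1 was lower in subcutaneous fat than in muscle (-1.14, SE 0.14) and PKNOX1 lower in perirenal fat than in muscle (-1.44, SE 0.10). Between the depots MEIS2 was lower (-0.87, SE 0.12) and PKNOX2 higher (0.64, SE 0.20) in perirenal fat. PBX4, the cofactor that was not tested, had at most 0.124 CPM in any pool.

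Other genes with known regional expression were compared in the same way. Of 31 listed genes 25 were tested, and 12 were higher and 10 lower in subcutaneous fat than in muscle, 10 higher and 12 lower in perirenal fat than in muscle and 7 higher and 14 lower in perirenal than in subcutaneous fat. These are to be read against the same shares of all genes as for the cofactors, and nothing particular to the list is read from them. TBX15, a T-box factor of dermis, fat and muscle, had 22.1, 69.7 and 230 CPM in subcutaneous fat and 14.9, 32.6 and 54.8 CPM in muscle but at most 0.5001 CPM in perirenal fat (-9.49, SE 0.55, against subcutaneous fat). The next largest differences of perirenal from subcutaneous fat were those of SIX2 (-7.57, SE 0.71) and WT1 (6.87, SE 0.42). WT1, a factor of kidney and mesothelium, had 5.24, 7.74 and 9.27 CPM in perirenal fat. Against muscle, perirenal fat differed most at PAX7, ZIC1 and TBX5. PAX7 and ZIC1 had no read in perirenal fat, whereas TBX5, a forelimb and heart factor, had 5.19, 8.60 and 12.6 CPM there and at most 0.0501 CPM in muscle (9.57, SE 0.54). Subcutaneous fat differed most from muscle at PAX7 (-8.98, SE 0.24), PAX3 (8.08, SE 0.83) and TBX5 (5.51, SE 0.71).

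The second question of the design was whether the diet of the dam shifted HOX expression in the fetus. No HOX locus passed an adjusted p of 0.05 in any of the 9 comparisons of diets (edgeR on the loci of each tissue, all loci of the tissue tested together), nor with DESeq2 or any other alternative tried. Tested were 22 HOX loci in muscle, 21 in subcutaneous fat and 26 in perirenal fat. Among all loci 1.01% passed in muscle for DG against CN, 2.69% for HY against CN and 0% for DG against HY. In subcutaneous fat 0% passed in each comparison, and in perirenal fat 0.115%, 0% and 0% passed. The lowest adjusted p of a HOX locus was 0.12, for HOXC9 in muscle.

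Counts at an unadjusted p under 0.05 were low too. In muscle these were 2 of 22 for DG against CN (16.3% of all loci), 3 for HY against CN (20.4%) and 0 for DG against HY (2.14%). In subcutaneous fat they were 2 of 21 (15%), 0 (4.34%) and 2 (18.1%). In perirenal fat they were 2 of 26 (9.9%), 1 (2.31%) and 5 (9.86%). Except in perirenal fat for DG against HY, the share of HOX loci was close to or below that of all loci. CPM in this comparison were scaled within each tissue and differ slightly from those above.

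**Figure D5:**
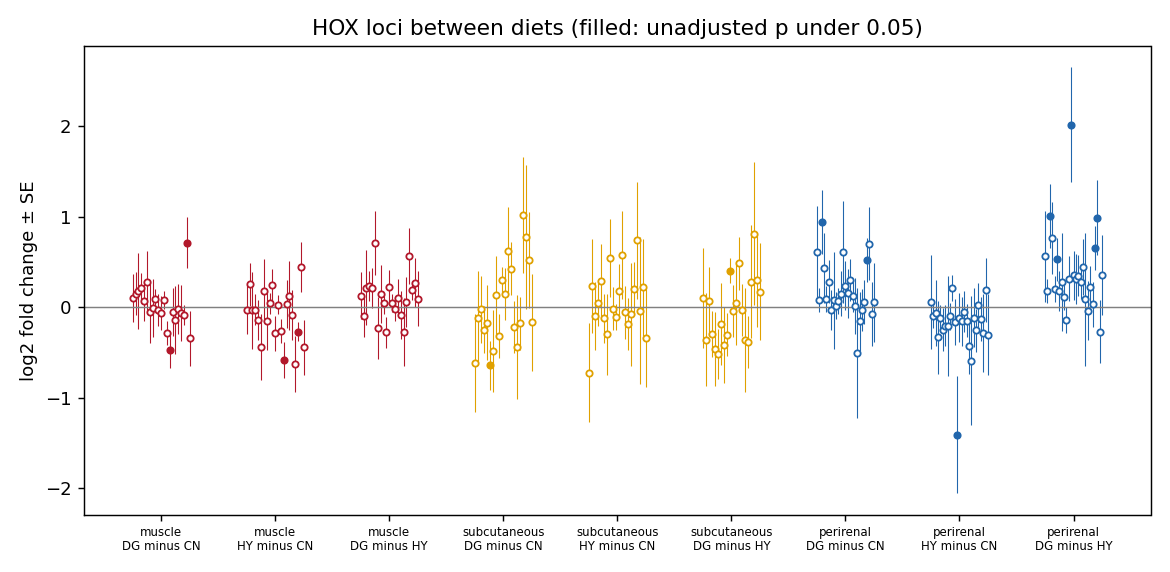
Log2 fold change with 1 SE of the HOX loci reported between maternal diets in each tissue. Filled points had an unadjusted p under 0.05, and none had an adjusted p of at most 0.05. The largest filled point is HOXD10 in perirenal fat for DG minus HY, at 2.02.

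In muscle, a HOXC9 locus had 20.6, 13.5, 16.1 and 15.7 CPM in CN pools (F1, F2, M1 and M2), 9.43, 13.3, 11.02 and 13.7 in DG pools and 10.9, 7.22, 12.9 and 13.2 in HY pools. It was lower at the unadjusted threshold in DG (-0.47, adjusted p = 0.27, edgeR) and in HY (-0.58, adjusted p = 0.12, edgeR) than in CN, where HY pools did not overlap with CN pools. The second HOXC9 locus of the same span held more reads and differed less from CN, by -0.06 in DG and -0.29 in HY (adjusted p = 0.90 and 0.42, edgeR). HOXA3 had 2.04, 1.59, 2.58 and 3.05 CPM in CN and 4.98, 4.38, 3.43 and 2.34 in DG (0.71, adjusted p = 0.23, edgeR), with overlap. The HOXA4 to HOXA6 locus had 82.1, 72.8, 84.4 and 86.6 CPM in CN and 69.6, 62.9, 69.3 and 68.4 in HY (-0.27, adjusted p = 0.17, edgeR), with every HY pool below every CN pool.

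In subcutaneous fat, the separate HOXB3 locus had 6.98, 4.71, 5.59 and 6.91 CPM in CN and 4.196, 2.97, 4.93 and 3.42 in DG (-0.64, adjusted p = 0.31, edgeR). HOXD8 had 48.7, 58.8, 72.0 and 69.5 CPM in DG and 42.7, 47.7, 47.0 and 50.7 in HY (0.40, adjusted p = 0.18, edgeR). Muscle marker RNA ranged from 3761 to 60795 CPM in CN, from 966 to 135449 CPM in DG and from 887 to 115938 CPM in HY. With the log2 marker sum as a covariate the differences were -0.57 for HOXB3 (adjusted p = 0.23, edgeR) and 0.42 for HOXD8 (adjusted p = 0.14, edgeR).

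In perirenal fat all 5 loci counted for DG against HY were higher in DG. HOXB6 had 3.35, 4.41, 4.73 and 5.17 CPM in DG, 1.48, 1.93, 1.71 and 3.77 in HY and 2.51, 3.25, 2.34 and 1.04 in CN, and was higher in DG than in HY (1.004, adjusted p = 0.39, edgeR) and CN (0.94, adjusted p = 0.36, edgeR). HOXD10 had 0.974, 3.15, 2.78 and 0.424 CPM in DG, 0.0922, 0.734, 0.326 and 0.588 in HY and 0.869, 1.63, 1.23 and 0.869 in CN. It was higher in DG than in HY (2.02, adjusted p = 0.34, edgeR) and lower in HY than in CN (-1.41, adjusted p = 0.9999, edgeR), and DG pools were widely spread, overlapping with HY.

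HOXA4 had 5.85, 9.95, 7.41 and 6.61 CPM in DG, 4.34, 6.06, 3.83 and 4.59 in HY and 3.57, 6.504, 5.02 and 5.47 in CN. It was higher in DG than in HY (0.66, adjusted p = 0.40, edgeR) and CN (0.52, adjusted p = 0.49, edgeR). HOXA3 had 1.64, 1.89, 2.06 and 1.53 CPM in DG and 0.646, 1.74, 0.651 and 0.471 in HY (0.99, adjusted p = 0.46, edgeR). HOXB2 had 3.90, 3.65, 5.14 and 4.92 CPM in DG and 3.32, 3.58, 2.69 and 2.59 in HY (0.53, adjusted p = 0.49, edgeR). Of the 26 loci tested 22 had a positive log2 fold change for DG against HY, with a median of 0.30 over the HOX loci and -0.02 over all loci. Every difference named here at an unadjusted p under 0.05 failed the correction for multiple tests.

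The other HOX loci reported did not reach an unadjusted p under 0.05, although their pools could lie apart. HOXC8 in muscle had 26.5, 26.0, 28.8 and 27.0 CPM in CN and 22.2, 24.7, 18.0 and 24.1 in DG, without overlap. Over all loci reported, those named above included, log2 fold changes ranged from -0.63 to 0.71 in muscle. They ranged from -0.72 to 1.02 in subcutaneous fat and from -1.41 to 2.02 in perirenal fat. HOXA9, HOXA10, HOXC10 and HOXC11 had too few reads in subcutaneous fat to be tested between diets there.

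Whether the diet effects themselves differed between tissues was tested in the joined table with an interaction term. No HOX unit passed an adjusted p of 0.05 in any of 9 such differences (edgeR), where 0.022%, 0% and 0.491% of all genes passed between subcutaneous fat and muscle for DG against CN, HY against CN and DG against HY, 0% in each between perirenal fat and muscle, and 0.00733%, 0% and 7.34% between the depots. At an unadjusted p under 0.05 for DG against HY were 4 of 24 HOX units between subcutaneous fat and muscle (19.3% of all genes) and 6 of 24 between the depots (25.2%). The lowest adjusted p between the depots were those of HOXD10 (2.76, SE 0.95, adjusted p = 0.067, edgeR), HOXA9 (5.18, SE 1.77, adjusted p = 0.069, edgeR) and HOXD8 (-0.48, SE 0.18, adjusted p = 0.088, edgeR). HOXA9 rested on 18 subcutaneous reads, of which 8 came from HY M2, 5 from HY F1 and none from DG pools. With DESeq2, HOXA9 (4.49, adjusted p = 0.0063), HOXA10 (3.05, adjusted p = 0.045) and HOXD8 (-0.53, adjusted p = 0.035) passed the threshold between the depots, where 11.6% of all genes did, and HOXA9 did so between subcutaneous fat and muscle (-4.86, adjusted p = 0.0091), where 3.82% did. HOXA10 rested on 51 subcutaneous reads, 31 of them in HY M2.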

How the data were processed

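The mRNA of 36 pools was sequenced by the study on an Illumina HiSeq as single-end reads. Per the submitters' processing notes, reads were aligned to Oar_v3.1 with TopHat2 2.0.4, transcripts were assembled per tissue with Cufflinks 2.1.1, and the authors deposited raw read counts per locus from HTSeq. How HTSeq treated strand and reads with several alignments is not given in the sources used here, so loci that share a span cannot be told apart.

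Loci were joined over tissues by name and chromosome, which kept 85.13% to 96.38% of the counts of a library. Names at more than 5 loci of a chromosome (63 names) were not used. Genes were filtered (edgeR filterByExpr, minimum count 10, minimum total 15) and scaled by TMM. Tissues were compared over the 3 diets, and the differences of diet effects between tissues tested, with edgeR 4.0.16 quasi-likelihood tests (R 4.3.3) on 36 libraries and 13636 genes, with diet by tissue groups. Diets were compared within each tissue on 18573 (muscle), 18008 (subcutaneous) and 18246 (perirenal) loci. P-values were adjusted by Benjamini-Hochberg over all features tested. Limits for genes without reads were set at 3 counts over the 12 pools of a tissue and, like all such limits, cover counting error only.

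The members and gene lists were chosen with earlier results of these data known. Full statistics were given for the 3 members with the largest change past the threshold in each tissue comparison. Pool values were given for these, for members detected in 1 tissue and for members with a mean of at least 10 CPM, and for diets at an unadjusted p under 0.05. The other lists were given as counts with their 3 largest changes. Counts and sums cover all members, but 2 genes are not reported here by name or value. Other genes were named after their values were seen.

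The 54 pairs of libraries of a group differed by more than sampling noise (chi-square per degree of freedom 12.9 to 405). Pools of a number held the same fetuses in the 3 tissues, and their deviations from group means correlated by 0.087, 0.115 and 0.043 on average for muscle with subcutaneous, muscle with perirenal and subcutaneous with perirenal fat. Other pools had -0.028, -0.038 and -0.014. Deviations within a group sum to 0, so these values largely follow from the first and are no separate baseline. Alternatives were other size factors, DESeq2 1.42.0, no filter, a replicate block, joining by position, the pools rich in muscle RNA left out, a muscle marker covariate, 8 pools only and each library left out. Using only the locus with the most counts of each HOX name was added after seeing the data. The code was tested on simulated data.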

Additional observations from a re-analysis of the deposited data

Results flagged for a closer look

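In 102 groups of 4 pools, 7 values lay apart from the other 3 by more than Dixon's 95% critical value, where chance gives about 1 in 20. In muscle the CN F2 pool was low for the HOXA sum, at 169 CPM against 250 to 264 CPM in the other CN pools, and for HOXC10, at 10.8 CPM against 22.9 to 23.2 CPM. In subcutaneous fat the same CN F2 pool was low for the HOXB3 and HOXB4 unit, at 16.7 CPM against 23.3 to 24.7 CPM. The subcutaneous DG M1 pool was high for that unit, at 24.6 CPM against 13.6 to 15.2 CPM, and for the HOXB sum, at 34.2 CPM against 19.3 to 20.4 CPM. DG M1 had 966 CPM of muscle markers, the least of the DG pools, and CN F2 60795 CPM, the most of the CN pools. In the paper's description of pools, the second CN female pool is the one with a single fetus. Whether this bears on the values of CN F2 was not tested.

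In perirenal fat the HOXC sum was high in DG F2, at 60.8 CPM against 36.4 to 39.5 CPM. HOXB7 was low in HY M1, at 14.3 CPM against 15.1 to 15.2 CPM.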

How the results depend on the processing

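Leaving out 1 library gave 4 HOX units higher and 16 to 17 lower in subcutaneous fat than in muscle, 7 to 8 and 11 to 13 in perirenal fat against muscle, and 14 to 16 and 6 in perirenal against subcutaneous fat. Joined by position, with units of a shared region each counted, they were 6 and 16, 9 and 12, and 18 and 4. With the pool as a replicate block the counts were 4 and 16, 7 and 12, and 14 and 6, as without it. Over the diets the same number marks only sex and pool; same-numbered pools correlated by -0.036 in muscle, 0.214 in subcutaneous and 0.062 in perirenal fat on average, and with the number as a replicate block the count of HOX loci called was 0. All 156 alternative counts for the diets, with each library left out, were 0. Differences of diet effects gave 1 HOX unit between subcutaneous fat and muscle and 3 between the depots with DESeq2, for DG against HY, and the cause was not tested.

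Library totals in place of TMM factors shifted the median of all genes to 0.15, 0.34 and 0.17 (log2) in the 3 tissue comparisons. The HOXD9 difference between depots then changed sign to 0.011, and median sums were 153 CPM for HOXD in muscle, 61.8 CPM for HOXB and 135.9 CPM for HOXD in perirenal fat. With all loci of the interval HOXD had 139.6 CPM in perirenal fat. Without the pools rich in muscle RNA the HOXA sum of subcutaneous fat was 42.5 CPM. Of values of single genes, 2624 kept direction and side of the threshold, 21 fell below it and 21 passed it. The HOXA4 to HOXA6 difference between perirenal fat and muscle passed it without muscle DG F1, perirenal CN F1, CN M2, DG F1, DG M1, DG M2, HY F1 or HY M1, or subcutaneous CN F1, CN F2, CN M1, DG F1, DG M1, HY F2, HY M1 or HY M2, and that of HOXC5 without perirenal CN M1 (adjusted p = 0.029, edgeR). Folds of HOXA9, HOXA10 and HOXC10 against subcutaneous fat rest on 18, 51 and 4 reads there.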
